A study of Arabidopsis thaliana with 18 samples.

Results

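The cytochrome P450 (CYP) gene family was represented by 23 of the 22746 probe sets tested on the Affymetrix ATH1 array of *Arabidopsis thaliana*. A probe set is a group of short oligonucleotides that together measure a transcript. The members were the probe sets to which the annotation table of the array gave 1 gene with a P450 symbol, that is, CYP followed by a family number, subfamily letters and a gene number. Cyclophilins, whose symbols also begin with CYP, did not match this pattern. The annotation table named 1 gene for 13513 probe sets, and the RefSeq annotation of the TAIR10.1 assembly held 236 genes with P450 symbols, so that the 23 members covered a small and uneven share of the family. Of the members, 19 belonged to subfamily CYP71B, and CYP51G2, CYP78A9, CYP79A2 and CYP84A4 each stood alone for their families. Other P450 genes are not members of this set. Some of them may be measured by probe sets to which the annotation table gave no gene.

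Transcripts were measured in aerial parts of 18-day-old seedlings, with 3 biological replicates, each hybridised to 1 array, in each of 6 groups. The groups were *pad2-1* with MV, WT with MV, *pad2-1* under P-lim, WT under P-lim, *pad2-1* under the control condition and WT under the control condition. WT was the Col-0 accession and *pad2-1* a mutant of *GSH1* in that background, a gene whose product catalyses the first step of glutathione synthesis and whose mutation lowers the glutathione content of the whole plant. All plants grew on Murashige and Skoog agar medium with sucrose, to which methyl viologen (MV), a herbicide that generates superoxide in illuminated chloroplasts, was added for oxidative stress (0.05 µM in the methods of the study, 0.05 M in the sample labels), and in which phosphate was reduced to 20% of the standard medium for P-lim. A single mutant allele was compared with WT, and the *pad2-1* lesion is a point mutation, so that no transcript level could check the genotype labels.

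P450s are heme-containing monooxygenases, mostly anchored in the membrane of the endoplasmic reticulum, which take electrons from NADPH-cytochrome P450 reductase and insert oxygen into small molecules. In plants they act in the synthesis of hormones, sterols, phenylpropanoids, glucosinolates and the indole phytoalexin camalexin, and in the breakdown of hormones and herbicides. The CYP71 family is among the largest in plants, and its genes often lie side by side in arrays of duplicated copies whose substrates are mostly unassigned.

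The deposited values were log2 signals after robust multi-array average (RMA) normalisation. They rank the arrays for a given probe set, whereas the level of a probe set cannot be set against that of another because oligonucleotides differ in affinity. Arrays of the same group correlated at r = 0.9964 to 0.9984 across probe sets. Of the leaf markers listed, 2 of 13 were named as single genes in the array annotation. The log2 of their summed signals lay between 13.89 and 13.97 in all groups. Of the root markers, 2 of 9 were so named, the beta-glucosidase gene *PYK10* and the root hair expansin gene *EXPA7*, and none of the 6 flower markers was. Markers not named there may still be measured by probe sets without a gene name. For the root markers, *PYK10* contributed most to the summed signal. The log2 of this sum spanned 9.02 to 9.44 in *pad2-1* with MV and 9.34 to 9.5 in WT with MV. Under P-lim it spanned 9.47 to 9.6 in *pad2-1* and 8.9 to 9.22 in WT. In controls it spanned 8.57 to 9.18 in *pad2-1* and 8.51 to 8.88 in WT. *EXPA7* passed the test in no comparison.

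Most P450 probe sets varied little between the groups, as did the bulk of the array. With MV in *pad2-1*, the median size of the log2 fold change was 0.0722 for members and 0.075 for all probe sets. With MV in WT it was 0.12 and 0.083. Under P-lim it was 0.082 and 0.0816 in *pad2-1*, and 0.1 and 0.0776 in WT. As a description of the signals alone, the mean over all arrays was below the lower quartile of all probe set means (3.86) for 8 members, below the median (5.93) for 15 and below the upper quartile (7.57) for 21. The range of the 6 group means was under 0.3 on the log2 scale for 14 of the 23 members, a count not made over all probe sets. *CYP71B31*, for example, which in flowers takes part in the oxidation of linalool, averaged 2.7 ± 0.118 in *pad2-1* with MV, 2.66 ± 0.0285 in WT with MV, 2.76 ± 0.108 in *pad2-1* under P-lim, 2.7 ± 0.0374 in WT under P-lim, 2.67 ± 0.016 in *pad2-1* controls and 2.68 ± 0.00886 in WT controls (SD, n = 3 each). Its 6 groups overlapped almost completely. At such signals a transcript that is present at a low level and one that is absent cannot be told apart.

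**Figure D1:**
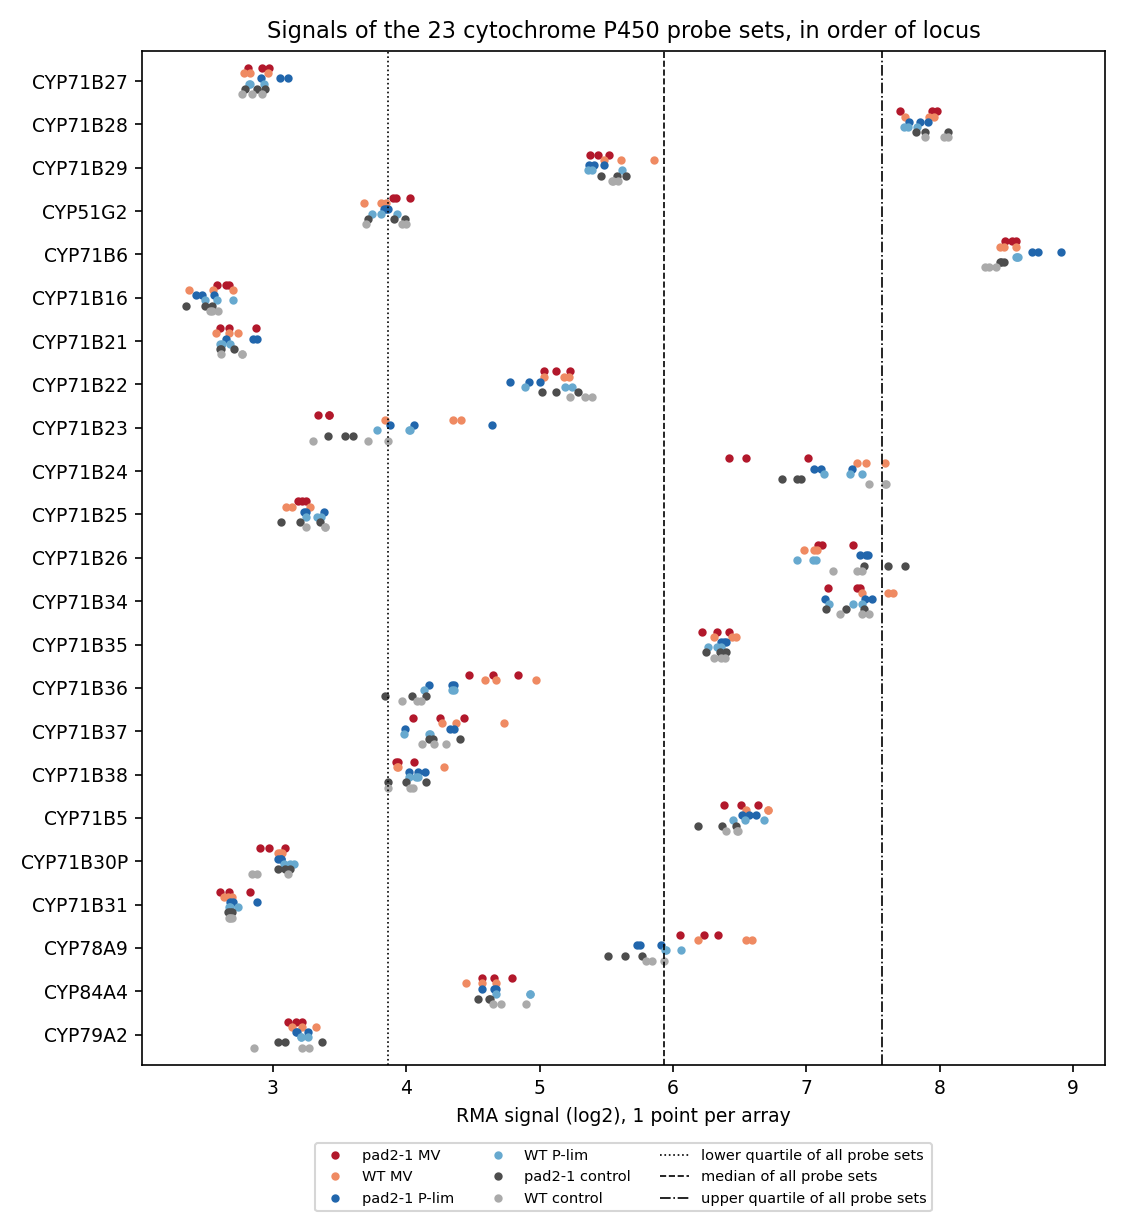
RMA signal (log2, x axis) of each of the 23 P450 probe sets (rows, in order of locus) in the 18 arrays, with 1 point per array coloured by group and vertical lines at the quartiles of all probe set means (3.86, 5.93 and 7.57). Most members keep their 18 points within a narrow band, and CYP71B23, CYP71B24, CYP71B36 and CYP78A9 spread the widest.

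Differences were tested with limma on all 18 arrays, with Benjamini-Hochberg adjustment over the 22746 probe sets, and a probe set was called at an adjusted p under 0.05 with no minimum fold change. Of the 23 members, 7 passed in at least 1 of 11 comparisons (*CYP78A9*, *CYP84A4*, *CYP71B6*, *CYP71B23*, *CYP71B24*, *CYP71B26* and *CYP71B36*) and 16 passed in none, where 31.3% of all probe sets passed in at least 1 of the same comparisons. The 7 members gave 24 calls, and in 22 of these the arrays of the groups compared did not overlap. Calls and separation rest on the same values, so that separation adds no support to a call. The share of separated calls among all probe sets called was not computed. No fold change of a member reached 1 on the log2 scale in the 11 comparisons, a size that 0.251% to 0.901% of all probe sets reached with a call. Comparisons that use the same arrays, such as MV and P-lim against the same controls, are not independent of each other.

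With MV, 3 of 23 members passed in *pad2-1* (2 higher, 1 lower), where 8.01% of all probe sets did (4.16% higher, 3.85% lower), and 4 of 23 passed in WT (3 higher, 1 lower), where 13.5% did (7.98% higher, 5.56% lower). Under P-lim, 2 members passed in *pad2-1*, both higher, where 11.8% of all probe sets did (6.58% higher, 5.23% lower), and 2 passed in WT (1 higher, 1 lower), where 9.21% did (4.92% higher, 4.28% lower). In *pad2-1* against WT, 2 members passed with MV, both lower (5.16% of all probe sets, 2.34% higher and 2.82% lower), 2 under P-lim, both higher (5.31%, with 3.15% higher and 2.16% lower), and 1 under the control condition, lower (6.35%, with 3.66% higher and 2.69% lower). The shares of members called, 4.35% to 17.4%, were near these background shares. The median log2 fold change of the members was between -0.06 and 0.06 in these 7 comparisons, against -0.02 to 0.02 for all probe sets.

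Complete separation of the arrays was no more frequent among the members than on the whole array in most comparisons. With MV against control, 5 of 23 members had groups fully apart in *pad2-1* (23.6% of all probe sets) and 6 in WT (30.1%). Under P-lim against control, 6 were apart in *pad2-1* (27.2%) and 6 in WT (31.8%). In *pad2-1* against WT, 5 were apart with MV (20.1%), 5 under P-lim (23.2%) and 5 under the control condition (25.1%). In MV against P-lim, 9 were apart in *pad2-1* (25.6%) and 5 in WT (27.4%). The genotype-by-stress interaction was passed by 0 members for MV (1.65% of all probe sets) and 0 for P-lim (0.725%) in limma. In each, 3 members had an unadjusted p under 0.05. That count was not made over all probe sets, so that it cannot be set against a background share.

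**Figure D2:**
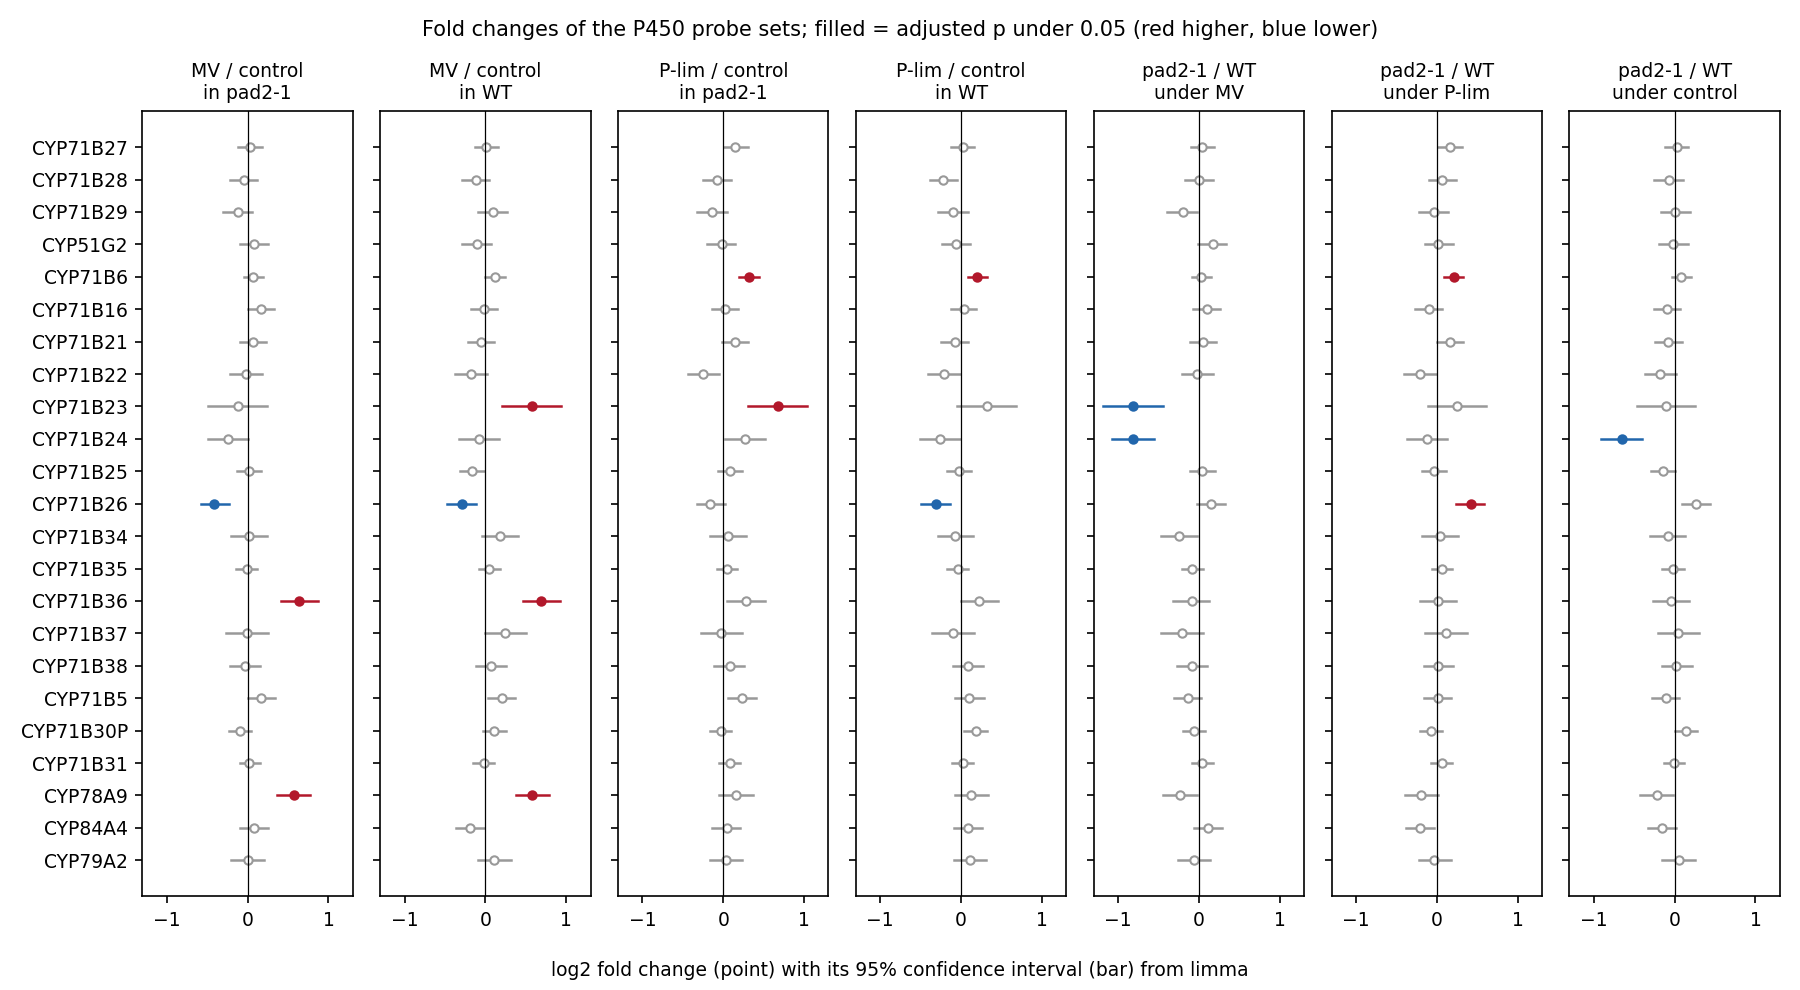
limma log2 fold change (points) with its 95% confidence interval (bars) for the 23 P450 probe sets in 7 comparisons, with filled red points for calls higher and filled blue points for calls lower at an adjusted p under 0.05. CYP71B36 and CYP78A9 are higher with MV in both genotypes, CYP71B26 is lower with MV in both genotypes, and CYP71B24 is lower in pad2-1 with MV and under the control condition.

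Among the members with a known role, *CYP78A9* (AT3G61880), a regulator of organ, fruit and seed size, was higher with MV in both genotypes. Its log2 signals were 6.23, 6.34 and 6.05 in *pad2-1* with MV, against 5.51, 5.64 and 5.77 in *pad2-1* controls. They were 6.59, 6.19 and 6.55 in WT with MV, against 5.93, 5.8 and 5.84 in WT controls. In both genotypes every MV array was above every control array. The log2 fold change was 0.57 ± 0.0981 (SE) in *pad2-1* (1.48-fold, limma adjusted p = 0.00101) and 0.58 ± 0.0981 in WT (1.5-fold, adjusted p = 0.000456). Signals under P-lim, at 5.75, 5.91 and 5.73 in *pad2-1* and 6.06, 5.95 and 5.94 in WT, were below all MV arrays of the same genotype. *CYP78A9* was thus also higher with MV than under P-lim, by 0.41 in *pad2-1* (adjusted p = 0.0121) and by 0.46 in WT (adjusted p = 0.00434). P-lim against control did not pass in either genotype. Without *pad2-1* P-lim replicate 3 or *pad2-1* MV replicate 2 the comparison of MV with P-lim in *pad2-1* missed the threshold (adjusted p = 0.0543 and 0.0727).

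*CYP71B6* (AT2G24180) encodes an enzyme that converts indole-3-acetonitrile in indole metabolism. It was higher under P-lim in both genotypes, by a small margin. The log2 signals were 8.74, 8.69 and 8.91 in *pad2-1* under P-lim, against 8.46, 8.48 and 8.45 in *pad2-1* controls. In WT they were 8.58, 8.59 and 8.57 under P-lim, against 8.34, 8.37 and 8.42 under the control condition. The arrays under P-lim were above the control arrays in both genotypes, and those of *pad2-1* under P-lim were the highest of all 18. The log2 fold change was 0.32 ± 0.056 in *pad2-1* (1.25-fold, limma adjusted p = 0.000767) and 0.2 ± 0.056 in WT (1.15-fold, adjusted p = 0.0325). Under P-lim *CYP71B6* was also higher in *pad2-1* than in WT, by 0.21 (1.16-fold, adjusted p = 0.0362). With MV the signals were 8.57, 8.54 and 8.49 in *pad2-1* and 8.45, 8.48 and 8.57 in WT, and in *pad2-1* they were lower than under P-lim by 0.25 (adjusted p = 0.00729). The interaction of genotype with P-lim did not pass. The call in WT was lost without any 1 of the 6 arrays compared (adjusted p = 0.0555 to 0.113), and that of *pad2-1* against WT without any 1 of the WT P-lim arrays (adjusted p = 0.0926, 0.0899 and 0.12 without replicates 1, 2 and 3), without *pad2-1* P-lim replicate 3 (0.179), with each array set to the same median (0.0843), or with the arrays of that comparison alone (0.146).

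*CYP84A4* (AT5G04330), a relative of the ferulate 5-hydroxylase of lignin synthesis that takes part in making arabidopyrones, passed in WT with MV against P-lim and in no comparison with the control condition. Its log2 signals were 4.67, 4.57 and 4.45 in WT with MV, against 4.67, 4.93 and 4.93 in WT under P-lim. The log2 fold change was -0.28 (limma adjusted p = 0.036), and the highest MV array reached the lowest P-lim array. The call was lost without WT P-lim replicate 2 (adjusted p = 0.124) or 3 (0.151), or without WT MV replicate 2 (0.0754) or 3 (0.15). In *pad2-1* the values were 4.57, 4.79 and 4.66 with MV, 4.57, 4.66 and 4.67 under P-lim and 4.63, 4.54 and 4.62 under the control condition, and those of WT controls were 4.9, 4.65 and 4.71. The *pad2-1* groups overlapped throughout.

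Neither of the remaining P450s from single-member families passed. *CYP79A2* (AT5G05260), which forms phenylacetaldoxime from phenylalanine for benzylglucosinolate, had group means of 3.12 to 3.23, and its groups overlapped. *CYP51G2* (AT2G17330), annotated in RefSeq as a transcribed pseudogene and named after the sterol 14-demethylases, had group means of 3.78 to 3.95. Both stayed within narrow bands. The intervals of the fold changes that did not pass still bounded what the arrays allowed: over all members not called, the 95% confidence intervals of the log2 fold change reached -0.49 to 0.34 for MV in *pad2-1*, -0.38 to 0.5 for MV in WT, -0.44 to 0.52 for P-lim in *pad2-1* and -0.51 to 0.68 for P-lim in WT.

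**Figure D3:**
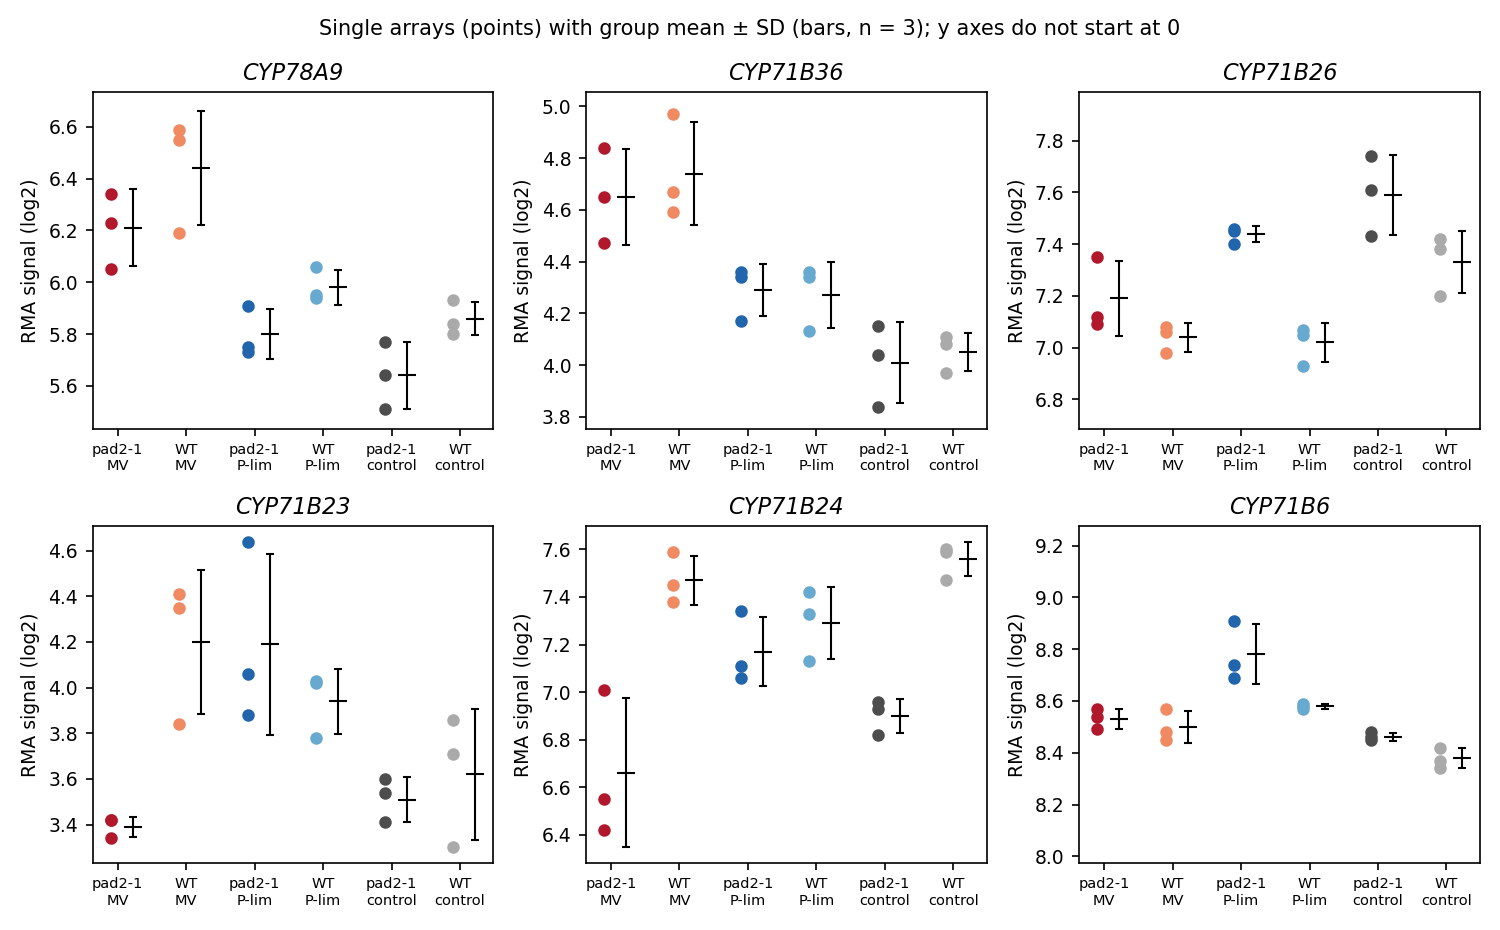
RMA signal (log2, y axis, not starting at 0) of 6 P450 genes in the single arrays (points) with the group mean ± SD (bars, n = 3). CYP78A9 and CYP71B36 are highest in the 2 MV groups, CYP71B24 is lowest in pad2-1 with MV and in pad2-1 controls, and CYP71B23 is raised in WT with MV and in pad2-1 under P-lim.

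The CYP71B members lay largely in tandem. In the gene order of TAIR10.1, *CYP71B16* to *CYP71B37* formed a run of 25 genes on chromosome 3, of which 18 were P450 genes and 11 were members. The probe set shared by *CYP71B19* and *CYP71B20* of this run was not a member and is described at the end. *CYP71B27*, *CYP71B28* and *CYP71B29* lay in a run of 5 genes on chromosome 1, and *CYP71B5*, *CYP71B30P* and *CYP71B31* in another run of 5 genes on chromosome 3. Runs were counted from the first to the last member. The P450 genes *CYP71B7*, next to *CYP71B29*, and *CYP71B32*, next to *CYP71B31*, were thus left out of the 2 short runs. None of the 6 members of the 2 short runs passed in any of the 11 comparisons, where 31.3% of all probe sets passed in at least 1. The long run held *CYP71B23*, *CYP71B24*, *CYP71B26* and *CYP71B36*, and its remaining 7 members did not pass. These counts are small, and whether calls were more frequent in the long run was not tested. No substrate is given here for these 4 genes. The 4 called genes did not share a pattern, and the median log2 fold change of the 11 members of the run was between -0.08 and 0.06 in the 7 comparisons with control or WT. Close copies can share sequence, and the extent to which transcripts of one copy bind the oligonucleotides of another was not tested.

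*CYP71B36* (AT3G26320) was higher with MV in both genotypes. Its log2 signals were 4.65, 4.84 and 4.47 in *pad2-1* with MV, against 4.15, 4.04 and 3.84 in *pad2-1* controls. They were 4.59, 4.67 and 4.97 in WT with MV, against 4.08, 3.97 and 4.11 in WT controls. All MV arrays were above all control arrays, with no difference between genotypes that passed. The log2 fold change was 0.64 ± 0.108 in *pad2-1* (1.56-fold, limma adjusted p = 0.000786) and 0.69 ± 0.108 in WT (1.62-fold, adjusted p = 0.000219). Under P-lim the signals stood between these, at 4.36, 4.17 and 4.34 in *pad2-1* and 4.34, 4.36 and 4.13 in WT, and did not pass against control (log2 fold change 0.28, adjusted p = 0.11 in *pad2-1*). MV exceeded P-lim by 0.36 in *pad2-1* (adjusted p = 0.0414) and by 0.47 in WT (adjusted p = 0.00741). The *pad2-1* call of MV against P-lim was lost without WT control replicate 1 or 3 (adjusted p = 0.0527 and 0.0508), without *pad2-1* P-lim replicate 1, 2 or 3 (0.0579, 0.162 and 0.0758) and without *pad2-1* MV replicate 1 or 2 (0.0837 and 0.198). The neighbouring *CYP71B37* averaged 4.25 ± 0.19 in *pad2-1* with MV, 4.23 ± 0.209 in *pad2-1* under P-lim and 4.25 ± 0.125 in *pad2-1* controls, and 4.45 ± 0.241 in WT with MV, 4.11 ± 0.109 in WT under P-lim and 4.21 ± 0.089 in WT controls (SD, n = 3 each). It passed in no comparison, and neither did *CYP71B35*, the neighbour on the other side, with group means of 6.32 to 6.4.

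*CYP71B26* (AT3G26290) was lower with MV in both genotypes. The log2 signals were 7.35, 7.09 and 7.12 in *pad2-1* with MV, against 7.61, 7.74 and 7.43 in *pad2-1* controls. In WT they were 7.06, 7.08 and 6.98 with MV, against 7.2, 7.38 and 7.42 under the control condition. The groups did not overlap in either genotype. The log2 fold change was -0.41 ± 0.0827 in *pad2-1* (limma adjusted p = 0.00384) and -0.29 ± 0.0827 in WT (adjusted p = 0.0245). Under P-lim the WT arrays, at 7.05, 7.07 and 6.93, were below the WT controls by 0.31 on the log2 scale (1.24-fold lower, adjusted p = 0.0207). The *pad2-1* arrays under P-lim, at 7.45, 7.4 and 7.46, overlapped the *pad2-1* controls. *CYP71B26* was thus higher in *pad2-1* than in WT under P-lim, by 0.42 (1.34-fold, adjusted p = 0.0049). The differences of 0.15 with MV and 0.26 under the control condition did not pass (limma adjusted p = 0.378 and 0.0731). Every *pad2-1* array was nevertheless above every WT array with MV and under the control condition, as under P-lim. The difference between genotypes in the P-lim response was itself not called by the interaction test. The WT calls rested on few arrays: that of MV was lost without WT control replicate 2 (adjusted p = 0.0913) or 3 (0.115) or WT MV replicate 1 (0.0508) or 3 (0.0871), and that of P-lim without WT control replicate 2 (0.0846) or 3 (0.108) or WT P-lim replicate 3 (0.105). In *pad2-1*, the MV call missed the threshold when the fit used the arrays of that comparison alone (adjusted p = 0.0545).

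*CYP71B24* (AT3G26230) showed the widest range of group means of any member, 0.9 on the log2 scale, and was lower in *pad2-1* than in WT. With MV the log2 signals were 7.01, 6.55 and 6.42 in *pad2-1*, against 7.45, 7.38 and 7.59 in WT. Under the control condition they were 6.96, 6.93 and 6.82 in *pad2-1*, against 7.47, 7.6 and 7.59 in WT. In both conditions all *pad2-1* arrays were below all WT arrays. The log2 fold change was -0.82 ± 0.119 with MV (1.76-fold lower, limma adjusted p = 0.000296) and -0.65 ± 0.119 under the control condition (1.57-fold lower, adjusted p = 0.00165). Under P-lim the genotypes overlapped, with 7.34, 7.11 and 7.06 in *pad2-1* and 7.13, 7.42 and 7.33 in WT, and the log2 fold change of -0.12 did not pass. Relative to control, P-lim signals were 0.27 higher in *pad2-1* (adjusted p = 0.17) and 0.26 lower in WT (log2 fold change -0.26, adjusted p = 0.205). The interaction of genotype with P-lim was 0.53 ± 0.168 (95% confidence interval 0.18 to 0.89) with an unadjusted p of 0.0054 and a limma adjusted p of 0.203, so that a different response of the genotypes to P-lim was not called. Within *pad2-1*, MV signals were below P-lim signals by 0.51 on the log2 scale (adjusted p = 0.0097), a call that was lost without *pad2-1* MV replicate 2 (0.0544) or 3 (0.059).

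*CYP71B23* (AT3G26210), which is separated from *CYP71B24* by *CYP71B3* alone, followed another pattern. Its log2 signals were 3.42, 3.34 and 3.42 in *pad2-1* with MV, against 3.84, 4.35 and 4.41 in WT with MV. They were 4.06, 3.88 and 4.64 in *pad2-1* under P-lim and 3.78, 4.03 and 4.02 in WT under P-lim, against 3.41, 3.54 and 3.6 in *pad2-1* controls and 3.3, 3.71 and 3.86 in WT controls. The 2 groups with the highest means were thus WT with MV and *pad2-1* under P-lim, and *pad2-1* with MV stood with the controls. *CYP71B23* was lower in *pad2-1* than in WT with MV, by 0.81 on the log2 scale (1.75-fold lower, limma adjusted p = 0.00866), with the groups fully apart. Under P-lim it was 0.68 ± 0.173 higher than in controls in *pad2-1* (1.6-fold, adjusted p = 0.0142), also with the groups apart. Within *pad2-1*, MV signals were below P-lim signals by 0.8 (adjusted p = 0.00582).

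In WT, *CYP71B23* was 0.58 ± 0.173 higher with MV than in controls (1.49-fold, limma adjusted p = 0.0325), but the groups overlapped. This call was lost without WT control replicate 1 (adjusted p = 0.176) or 2 (0.0591), without WT MV replicate 2 (0.117) or 3 (0.131), when each array was set to the same median (0.0525), with trend and robust variance (0.0567), and with the arrays of that comparison alone (0.0554). The P-lim call in *pad2-1* was lost without *pad2-1* control replicate 1 (adjusted p = 0.0571) or *pad2-1* P-lim replicate 3 (0.0836), the array with the highest signal of all. The interaction of genotype with MV was -0.7 ± 0.245 (95% confidence interval -1.22 to -0.19), with an unadjusted p of 0.0105 and an adjusted p of 0.205. The genotype difference with MV minus that under P-lim, a contrast added after seeing the data, was -1.06 ± 0.245 (adjusted p = 0.0403) and was passed by 1 of 23 members, where 1.3% of all probe sets passed, and the call was lost in 13 of 23 alternatives. The mean signal of this probe set over all arrays, 3.81, was below the lower quartile of all probe sets. The root marker *PYK10* passed in the same 2 stress comparisons, higher by 0.8 with MV in WT (adjusted p = 0.000703) and by 0.65 under P-lim in *pad2-1* (adjusted p = 0.00447), and its part in the P450 calls of these comparisons was not tested. In *pad2-1* against WT, *PYK10* did not pass with MV (log2 fold change -0.19, limma adjusted p = 0.519). Under P-lim it was higher in *pad2-1* by 0.53 (adjusted p = 0.0332), where *CYP71B6* and *CYP71B26* were also called higher. For MV against P-lim, its log2 fold change was 0.45 in WT (adjusted p = 0.0475) and -0.28 in *pad2-1*, which did not pass (adjusted p = 0.265). The part of *PYK10* in the P450 calls of these comparisons was not tested either.

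**Figure D4:**
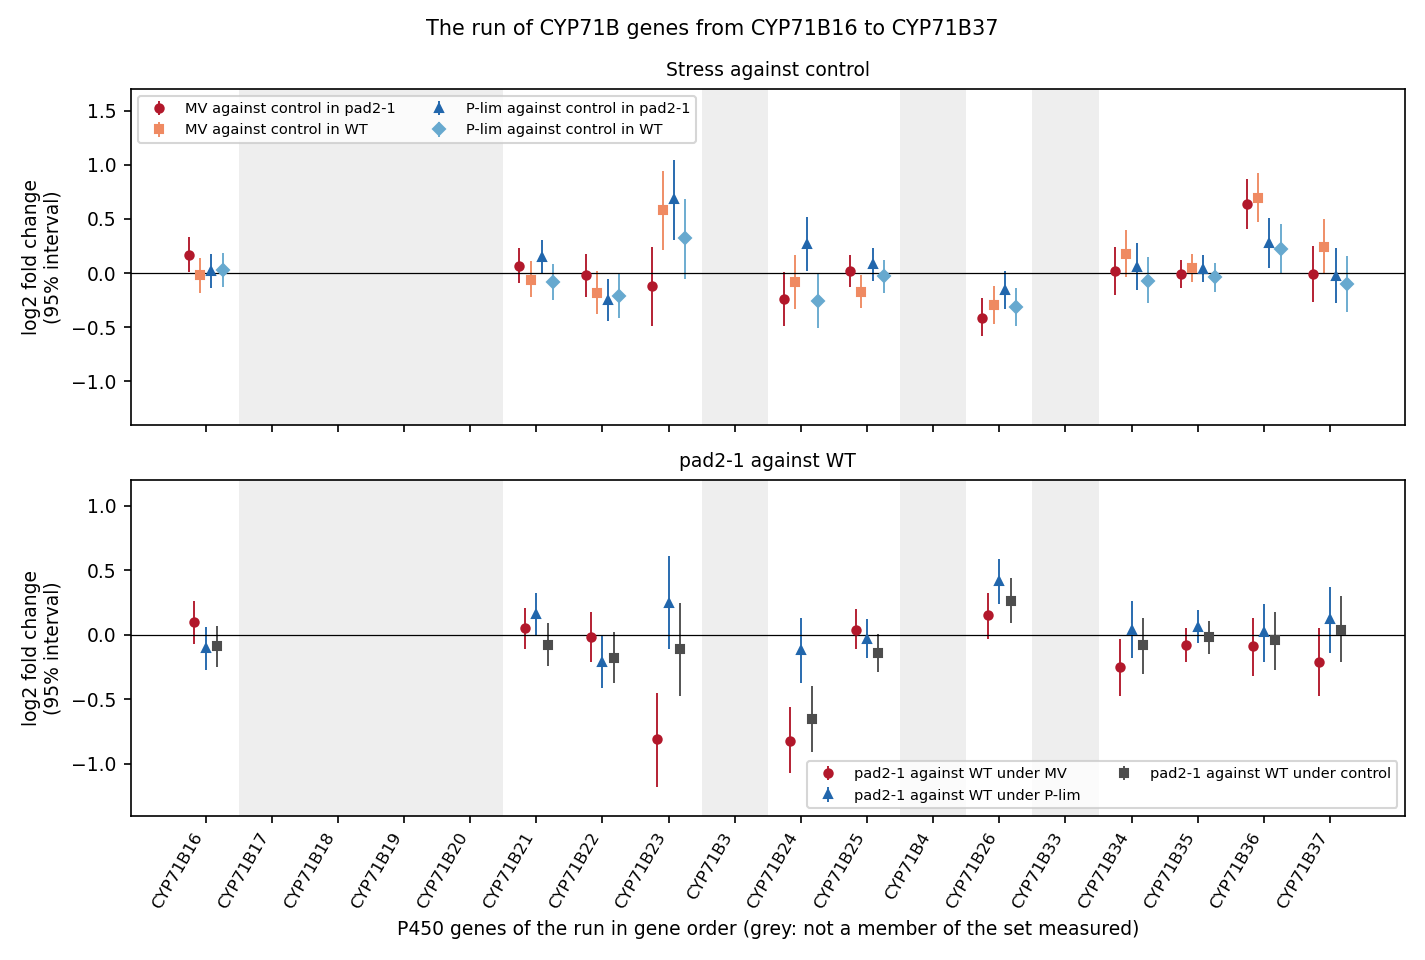
limma log2 fold change with its 95% confidence interval (y axes) for the members of the CYP71B run on chromosome 3, in gene order (x axis), for stress against control (upper panel) and pad2-1 against WT (lower panel), with grey bands for P450 genes of the run that were not members. CYP71B23 and CYP71B24, on either side of CYP71B3, are both lower in pad2-1 with MV, CYP71B36 is higher and CYP71B26 lower with MV in both genotypes, and most other members stay near 0.

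The other CYP71B members gave no call. *CYP71B28* averaged 7.87 ± 0.148 with MV, 7.84 ± 0.0685 under P-lim and 7.92 ± 0.125 under the control condition in *pad2-1*, and 7.87 ± 0.116, 7.77 ± 0.0545 and 7.99 ± 0.0909 in the same order in WT (SD, n = 3 each). The WT difference of -0.22 between P-lim and control separated the groups but missed the threshold (limma adjusted p = 0.11). *CYP71B22* averaged 5.13 ± 0.104 with MV, 4.9 ± 0.115 under P-lim and 5.15 ± 0.137 under the control condition in *pad2-1*, and 5.14 ± 0.0987, 5.11 ± 0.189 and 5.32 ± 0.0833 in WT. Its log2 fold changes of P-lim against control, -0.25 in *pad2-1* and -0.21 in WT, did not pass (adjusted p = 0.105 and 0.196). *CYP71B5* averaged 6.57 ± 0.0518 under P-lim and 6.34 ± 0.144 under the control condition in *pad2-1* (log2 fold change 0.23, adjusted p = 0.0828). *CYP71B34* averaged 7.31 ± 0.137 with MV, 7.35 ± 0.189 under P-lim and 7.29 ± 0.144 under the control condition in *pad2-1*, and 7.56 ± 0.125, 7.31 ± 0.129 and 7.38 ± 0.114 in WT. With MV its difference of -0.25 between *pad2-1* and WT left the groups apart without passing (adjusted p = 0.203). The pseudogene *CYP71B27* had group means of 2.84 to 3.02. *CYP71B30P*, whose name marks it as a pseudogene although RefSeq annotates it as protein-coding, had group means of 2.94 to 3.12. Both stayed within narrow bands in all 18 arrays.

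The 2 stresses were also compared directly. In *pad2-1*, 5 of 23 members passed (2 higher and 3 lower with MV), where 9.5% of all probe sets did (4.27% higher, 5.23% lower), and in WT 3 of 23 passed (2 higher, 1 lower), where 11.2% did (6.6% higher, 4.57% lower). *CYP78A9* and *CYP71B36* were higher with MV than under P-lim in both genotypes. *CYP71B6*, *CYP71B23* and *CYP71B24* were lower with MV in *pad2-1*, and *CYP84A4* in WT. In WT the log2 fold change of MV against P-lim was -0.08 for *CYP71B6*, 0.26 for *CYP71B23* and 0.18 for *CYP71B24*, none of which passed.

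Genes of pathways in which P450s act were named unevenly in the array annotation, with 12 of 87 listed genes found as single genes. None of the 8 listed electron donors of P450s was found there. Of 5 other genes of glucosinolate synthesis, 4 passed in *pad2-1* with MV, all higher, where 4.16% of all probe sets were called higher, and 4 passed in *pad2-1* under P-lim, all higher, where 6.58% were. In WT, 0 passed with MV, where 13.5% of all probe sets were called, and 0 under P-lim, where 9.21% were. The interaction, which tests this difference between genotypes, was passed by 3 of the 5 genes for MV (1.65% of all probe sets) and by 0 for P-lim (0.725%; adjusted p of at least 0.312 for all 5). Among these genes, *UGT74B1*, the glucosyltransferase that acts after the P450 steps of the pathway, averaged 9.51 in *pad2-1* with MV and 8.98 in *pad2-1* controls (log2 fold change 0.54 ± 0.0802, limma adjusted p = 0.000256), and 9.31 in WT with MV and 9.32 in WT controls. Its interaction with genotype was 0.54 ± 0.113 for MV (adjusted p = 0.0169) and 0.28 ± 0.113 for P-lim (adjusted p = 0.398), and under the control condition it was lower in *pad2-1* than in WT (log2 fold change -0.34, adjusted p = 0.0135). No P450 of this pathway other than *CYP79A2*, which did not pass, was a member. Of 2 genes of jasmonate synthesis and methylation, *OPCL1* and *JMT*, 1 passed in *pad2-1* with MV (8.01% of all probe sets) and 2 in WT with MV (13.5%), all higher, and neither passed the interaction of genotype with MV (adjusted p = 0.444 for *OPCL1* and 0.197 for *JMT*). Of 3 phenylpropanoid genes, *DFR*, a dihydroflavonol reductase of anthocyanin synthesis, had a log2 fold change with MV of 0.66 in *pad2-1* (adjusted p = 0.197) and of 1.62 in WT (adjusted p = 0.000711). The difference between these, -0.96, was not called by the interaction test (adjusted p = 0.324).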

How the data were processed

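The authors extracted total RNA, hybridised each biological replicate to 1 Affymetrix ATH1 array and, per the methods and the labels, normalised all arrays with RMA, whose version is not given in the sources used here. The deposited values are log2 signals per probe set (1.96 to 13.86 in these arrays), on which only 3 arrays per group limit the precision, and the spread of a fold change covers these replicates alone. RMA makes array distributions alike, so that changes are relative to the bulk of transcripts. Of 22810 probe sets, 64 manufacturer controls were left out. Groups came from the titles and treatment labels (the source text of WT with MV and of WT under P-lim names the normal medium).

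A model of 6 group means was fitted with limma 3.58.1 in R 4.3.3 without a minimum signal, with 12 residual degrees of freedom; p-values were adjusted by Benjamini-Hochberg over 22746 probe sets. It was tested on simulated data. Genes were named from the array annotation (14016 probe sets, 503 with several genes) and located by gene identifier in RefSeq, TAIR10.1. Members and lists were chosen with earlier results of these data known. By rule, values in all 6 groups (per array for called members, otherwise means) are given for up to 5 called members with the largest rise and fall per comparison, up to 4 of each role list, the 5 members with the highest mean signal and the 8 with the widest range of group means. *CYP79F1*, *CYP707A3*, *CYP81D7*, *CYP96A1*, *CYP98A3* and *CYP74B2* are no members and were not analysed here. Alternatives were the arrays compared alone, a replicate block, trend and robust variance, equal array medians, the lower 50% of probe sets left out, 1 probe set per gene, a minimum log2 fold change of 1, and each array left out.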

Additional observations from a re-analysis of the deposited data

Results flagged for a closer look

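For *CYP71B23* the measured genotype difference was opposite in sign in the 2 stresses. The planned interactions of genotype with MV and with P-lim did not pass (limma adjusted p = 0.205 and 0.699). The genotype difference (*pad2-1* minus WT) was -0.81 on the log2 scale with MV and 0.25 under P-lim, where it did not pass, and the difference between these, a contrast chosen after seeing the data, was -1.06 ± 0.245 (SE, 95% confidence interval -1.58 to -0.55, limma adjusted p = 0.0403, n = 3 per group). All 3 *pad2-1* arrays were below the 3 WT arrays with MV, whereas under P-lim the genotypes overlapped. Over all probe sets, 1.3% passed this contrast, and 1 of 23 P450 members did. Adjustment over probe sets does not cover the choice of the contrast. The call was lost in 13 of 23 alternatives, with adjusted p between 0.0127 and 0.107 over all of them: without WT control replicate 2 (0.0541), WT P-lim replicate 1, 2 or 3 (0.107, 0.0613 and 0.0778), *pad2-1* P-lim replicate 3 (0.0652), WT MV replicate 2 or 3 (0.0963 and 0.0888) or *pad2-1* MV replicate 1, 2 or 3 (0.0542, 0.0992 and 0.0818), with the arrays compared alone (0.0578), with equal array medians (0.0569) and with trend and robust variance (0.0617). The signal of this probe set was below the lower quartile of all probe sets.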

How the results depend on the processing

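No named fold change reversed under any alternative, and 574 recomputed calls kept their side of the threshold while 63 did not. *CYP78A9* and *CYP71B36* with MV in both genotypes, *CYP71B24* in *pad2-1* against WT with MV and under the control condition, *CYP71B23* in *pad2-1* against WT with MV, *CYP71B26* in *pad2-1* against WT under P-lim and *CYP71B6* under P-lim in *pad2-1* passed under all alternatives run for them except the minimum log2 fold change of 1. *CYP71B36* and *CYP71B23* have mean signals below the median of all probe sets. They were therefore removed, not tested, when the lower 50% of probe sets was left out. With the arrays compared alone, 1 member passed in *pad2-1* against WT under P-lim and 2 in MV against P-lim in *pad2-1*, where *CYP71B24* (adjusted p = 0.0637), *CYP71B6* (0.0735) and *CYP71B36* (0.0586) missed the threshold, as did *CYP84A4* in WT (0.0974). With the lower 50% of probe sets left out, 8 members remained, of which 2 passed for MV in WT, 1 in *pad2-1* against WT with MV, 2 under the control condition and 1 in MV against P-lim in WT. Equal array medians, for which each array was shifted by at most 0.045 on the log2 scale, left 1 member in *pad2-1* against WT under P-lim. Trend and robust variance gave 2 under the control condition. The causes were not tested. A minimum log2 fold change of 1 left 0 members in all 9 comparisons between 2 groups, where it left 0.347% to 0.901% of all probe sets. Leaving out single arrays gave 3 to 4 members for MV in *pad2-1*, 2 to 4 for MV in WT, 1 to 3 for P-lim in *pad2-1*, 0 to 2 for P-lim in WT, 2 to 3 in *pad2-1* against WT with MV, 1 to 2 under P-lim and 1 to 2 under the control condition, 2 to 6 in MV against P-lim in *pad2-1* and 2 to 3 in WT, and 0 in both interactions. In each such fit a group of 2 arrays remained.

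The groups share replicate numbers in the labels, but same-numbered arrays did not deviate together (r -0.18 to 0.18 over 45 pairs, median 0, with 2 of 18 arrays correlating best with their own number). With the replicate number as a block, 3 members passed for MV in *pad2-1*, 4 for MV in WT, 2 for P-lim in each genotype, and 2, 2 and 1 in *pad2-1* against WT with MV, under P-lim and under the control condition. *CYP71B36* in MV against P-lim in *pad2-1* (adjusted p = 0.0605) and *CYP84A4* in WT (0.0542) then missed the threshold.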

Other observations

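Some P450 probe sets that the array annotation names fell outside the set described. Probe sets without a gene name in that annotation were not searched for P450 genes. The probe set shared by *CYP71B19* and *CYP71B20*, neighbours in the long run on chromosome 3, averaged 8.52 ± 0.0457 in *pad2-1* controls and 8.72 ± 0.0384 in WT controls (SD, n = 3 each; log2 fold change -0.2 ± 0.0498, limma adjusted p = 0.0211), and passed in no other comparison. *CYP718*, whose symbol has no subfamily letter, had group means of 4.05 to 4.24, and the probe set shared by *CYP79C2* and AT1G58265 had group means of 3.19 to 3.37. Neither of these passed in any comparison.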
